A study of Mus musculus with 8 samples.

Results

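Wide regions are stretches of chromatin where a peak of the histone mark H3R17me2a ran over 800 bp or more with a fold enrichment of at least 3.5. Peaks meeting both limits were taken from each of the 4 deposited peak lists, on chromosomes 1 to 19, X and Y, and were merged where they overlapped by at least 1 bp. This gave 794 wide regions, from 418 and 219 wide peaks in control 1 and control 2, and 173 and 323 in knockout 1 and knockout 2. All peaks of the 4 lists, merged in the same way, made 28843 regions, of which 28050 held no wide peak. Members were thus chosen by their width and fold, and both are given only as a description. The fold is the authors' ratio of fragments at the summit over a local background, and it was not compared between libraries with a test. The sources used here do not say whether the ChIP library or its input gave that background.

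All mice carried floxed Carm1 alleles (Carm1 fl/fl) and were injected on postnatal day 1 with an AAV, an adeno-associated virus. In the knockout group the virus carried Cre, which deletes the floxed part of Carm1, and in the control group it carried GFP, a fluorescent protein without recombinase activity. Each group had 2 ChIP libraries with an input library for each. Hearts were mosaic per the labels' protocols, so knockout libraries may hold nuclei that kept Carm1, and the labels do not give the age at harvest, nor the number of hearts in a library. Nuclei were sorted on PCM1, a marker of cardiomyocyte nuclei, and chromatin was cut with micrococcal nuclease. The labels number the replicates but do not say that they came from separate animals, so the spread between libraries may be technical.

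Carm1 is an arginine methyltransferase that acts with nuclear receptor and other transcriptional coactivators. It places asymmetric dimethylation on arginine 17 of histone H3, a mark known for its association with gene activation. Many histone marks form both short peaks, about as long as one or a few nucleosomes, and longer domains. Tandem arrays, such as those of small RNA genes and satellite repeats, are another setting in which peak callers can give long intervals.

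Wide regions overlapped the promoter windows of 10 genes in RefSeq. Some of these windows are shown as places where wide regions came near an annotated gene start, though not every region reached the start itself. A window runs from 250 bases before to 50 bases after an annotated start, in GRCm38.p6, the assembly of mm10. There were 11 such windows among 32851, or 0.0335%, and all 10 genes are predicted genes with Gm names. A further 77 windows (0.234%) were overlapped by a peak and by no wide region. Wide regions numbered 794, against 28050 regions without a wide peak. The windows below are written 5′ to 3′ along the gene's strand, with each CG dinucleotide, the site of DNA methylation in mammals, in capitals. Gm40369 (chr6:47653742-47654041, plus strand) and Gm52861 (chr6:47738587-47738886, plus strand) start in 2 neighbouring gene arrays of chromosome 6. Gm30645 (chr7:10471267-10471566, minus strand) and Gm5636 (chrX:47436492-47436791, minus strand) lie on different chromosomes.
Gm40369: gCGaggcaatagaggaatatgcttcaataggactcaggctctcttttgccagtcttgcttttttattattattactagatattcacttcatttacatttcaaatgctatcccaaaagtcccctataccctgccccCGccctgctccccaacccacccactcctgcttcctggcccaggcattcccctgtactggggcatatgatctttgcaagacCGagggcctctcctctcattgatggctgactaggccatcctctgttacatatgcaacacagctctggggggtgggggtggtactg
Gm52861: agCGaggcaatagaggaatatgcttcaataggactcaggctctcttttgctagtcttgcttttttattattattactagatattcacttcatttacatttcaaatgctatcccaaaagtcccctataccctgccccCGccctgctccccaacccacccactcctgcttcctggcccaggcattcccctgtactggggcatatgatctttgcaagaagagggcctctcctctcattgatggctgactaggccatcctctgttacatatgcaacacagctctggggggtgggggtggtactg
Gm30645: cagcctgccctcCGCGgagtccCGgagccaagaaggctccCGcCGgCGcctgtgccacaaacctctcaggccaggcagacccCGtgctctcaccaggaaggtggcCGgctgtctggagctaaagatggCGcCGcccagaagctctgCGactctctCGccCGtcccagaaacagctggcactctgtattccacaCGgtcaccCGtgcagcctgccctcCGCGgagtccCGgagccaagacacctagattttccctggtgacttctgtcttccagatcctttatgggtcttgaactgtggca
Gm5636: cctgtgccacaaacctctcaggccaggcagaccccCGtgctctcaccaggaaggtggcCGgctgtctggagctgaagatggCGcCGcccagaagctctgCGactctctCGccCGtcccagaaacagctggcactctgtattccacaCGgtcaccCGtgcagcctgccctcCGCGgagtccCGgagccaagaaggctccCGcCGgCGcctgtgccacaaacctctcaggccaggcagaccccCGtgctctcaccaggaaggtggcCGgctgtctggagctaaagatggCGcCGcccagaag

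The first pair of windows agreed at 297 of 299 aligned bases (99.3%). The windows of Gm36327 and Gm40364, in the same array, were identical to that of Gm40369 over all 300 bases. At least one 30-base run of the Gm40369 window recurred in the windows of 13 other genes on 7 chromosomes. Of these 13 genes, 4 had a window under a peak, and the 4 include Gm36327, Gm40364 and Gm52861. Over all windows, 0.0335% lay under a wide region and 0.234% under a peak but no wide region. The second pair agreed at 220 of 247 aligned bases (89.1%) although the genes are on chromosomes 7 and X. Thus 6 of the 11 windows had a close copy in the window of another of these genes. The 11 windows were aligned with each other only. Gm36816, not among the 6, shared 30-base runs with the windows of 3 other genes on 3 chromosomes. Peaks over such copies depend on how reads that match several places were assigned, and no source used here gives this.

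The CG count of the 11 windows had a median of 7, the same as over all windows, and ranged from 0 to 19. Their median GC content was 56.7%, against 52.7% over all windows. The letters GGGCGG, the core of the binding motif of Sp-family factors, stood on either strand of 7 of 11 windows (63.6%), against 35.7% of all windows. CCAAT stood in 2 of 11 (18.2%), against 37.4%, and TATAA in 0 of 11, against 24.9%. In the 77 windows under a peak but no wide region, the shares were 22.1% for GGGCGG, 42.9% for CCAAT and 24.7% for TATAA. These are descriptions of 11 windows that are partly copies of each other. At the Gm5636 window, a wide peak of 1042 bp was called in control 1 at 10.9-fold and of 818 bp in control 2 at 7.19-fold, and narrower peaks were called in knockout 1 (6.93-fold, 536 bp) and knockout 2 (5.27-fold, 305 bp). At Gm30645 only 22 bases of the wide region entered the window, at its upstream end, so the annotated start lay outside the region. That region had a peak in every list, wide in knockout 1 alone.

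Among peaks of at least 3.5-fold, the wide ones made up 3.22% and 2.51% in control 1 and control 2, and 3.49% and 3.39% in knockout 1 and knockout 2. They held 10.6%, 9.13%, 12.1% and 11.5% of the bases in all peaks of their lists, at any fold. Their median width was 964, 991, 1001 and 1004 bp, against 292, 290, 296 and 296 bp for narrower peaks. Both groups had long tails, as the widest peaks measured 11335 and 11186 bp in the controls, and 7436 and 11330 bp in the knockouts. Few wide peaks were very long: 10, 8, 9 and 9 reached 3000 bp. Widths ran on smoothly across the limit, with 86, 49, 40 and 75 peaks of 750 to 799 bp and 77, 38, 26 and 46 of 800 to 849 bp. The narrowest wide peaks were 800, 800, 802 and 802 bp, and the widest peaks left out for width were 799, 797, 793 and 799 bp. For example, a peak of 800 bp in control 1 near Rgs20 had a fold of 13.3, and one of 799 bp on chromosome 11 in the same list, left out, had 8.32.

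**Figure D1:**
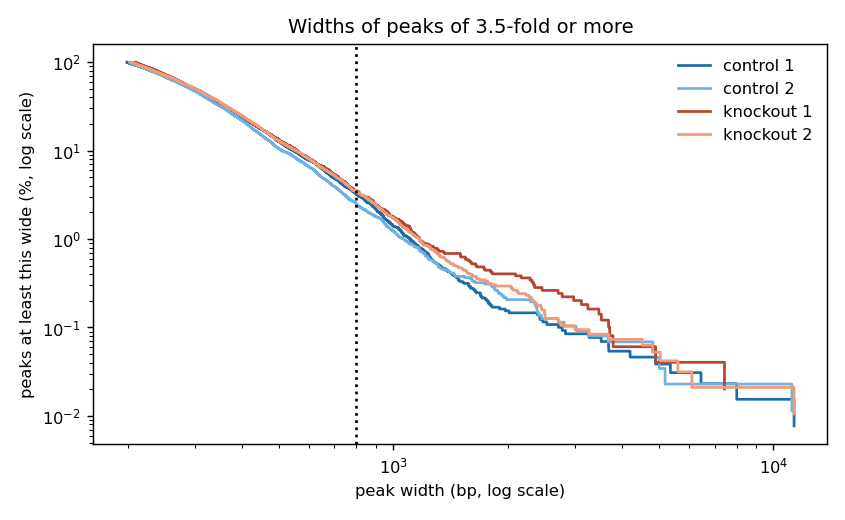
Share of peaks at least as wide as the value on the horizontal axis, for peaks of 3.5-fold or more in each list, both axes on a log scale. The dotted line marks 800 bp, where 3.22%, 2.51%, 3.49% and 3.39% of the peaks of control 1, control 2, knockout 1 and knockout 2 remain.

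The fold limit removed few peaks of this width. Wide peaks under 3.5-fold numbered 1 in each control list, 2 in knockout 1 and 0 in knockout 2. Of these, 3 were the same place on chromosome 4, at 3.43-fold in control 1, 3.48-fold in control 2 and 3.45-fold in knockout 1. That place is a member through knockout 2, where the fold was 4.21. The other was in knockout 1 at 3.07-fold, inside the span of Tmem267.

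Fold at the summit was moderate at wide peaks. Its median was 7.17 and 6.99 in the controls and 6.68 and 7.32 in the knockouts, and the highest values were 21.5, 24.5, 17.1 and 18.3. The highest fold among narrower peaks was 4922, 5598, 4285 and 2677, so the highest folds of these lists were all at narrower peaks. This ranking is by fold and not by fragment number. The fragments behind a typical wide summit were few, with a median of 11, 11, 13 and 11, against 7, 7, 8 and 7 at narrower peaks. A local background of 2 or more fragments lay under 10.3%, 18.7%, 31.2% and 12.1% of wide peaks, against 0.844%, 1.504%, 3.37% and 1.20% of narrower peaks. Wide peaks were thus more often in places of high background in every list.

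The share of peaks that were wide was 2.86% ± 0.50 in control and 3.44% ± 0.07 in knockout lists (SD, n = 2 each), a log2 ratio of knockout over control of 0.26. In an exact two-sided permutation test over libraries this gave p = 0.333, the smallest p that 2 against 2 can give. Both knockout lists lay above both control lists, by 0.17 points between the nearest pair. The direction did not hold when each list was kept to its best peaks by q-value, as many as the shortest list holds: the log2 ratio was then −0.30 (p = 0.667, exact permutation). The number of wide peaks was 318.5 ± 141 in control and 248 ± 106 in knockout lists (log2 ratio −0.36, exact permutation p = 0.667), and the groups overlapped. The median fold of wide peaks was 7.08 ± 0.13 and 6.999 ± 0.45, also overlapping.

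Wide peaks recurred between lists far more often than narrower peaks of the same list. A peak was counted as recurring when its summit lay inside a peak of any width in another list, which keeps a wide peak from recurring through its own length. By this measure 67.9% (control 1), 78.5% (control 2), 89.0% (knockout 1) and 67.8% (knockout 2) of wide peaks recurred. For narrower peaks the shares were 19.9%, 23.7%, 36.5% and 24.3%. The difference was 49.7 points ± 5.01 (SD over libraries, n = 4) and was positive in 4 of 4 lists, with an exact two-sided sign-flip p of 0.125, the smallest that 4 lists can give. Because each list is matched against the other 3, the 4 values are not independent. Recurrence in all 3 other lists was 16.99%, 31.1%, 37.0% and 19.8% for wide peaks and 1.58%, 2.63%, 4.73% and 2.47% for narrower peaks.

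Fragment number at the summit moved with recurrence, as the plot of recurrence by fragment number shows, and wide peaks had more fragments. Among peaks with 10 to 12 fragments, 70.7%, 82.7%, 86.0% and 68.9% of wide summits recurred in control 1, control 2, knockout 1 and knockout 2, against 37.3%, 43.7%, 50.1% and 45.9% of narrower summits. Above 20 fragments the gap was smaller: 98.1%, 95.5%, 96.4% and 95.6% against 79.4%, 92.0%, 91.5% and 81.1%. The gap was thus present at matched fragment numbers and narrowest at the strongest summits. Among peaks with a local background under 1 fragment, 63.4%, 72.1%, 83.8% and 62.8% of wide summits recurred, against 19.1%, 22.0%, 33.3% and 23.1%. In a further alternative every peak of the other lists was set to 300 bp around its summit, which shortens longer peaks and lengthens shorter ones. The mean difference was then 32.8 points, against 49.7 with the peaks as called, and it was positive in every list (exact sign-flip p = 0.125).

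**Figure D2:**
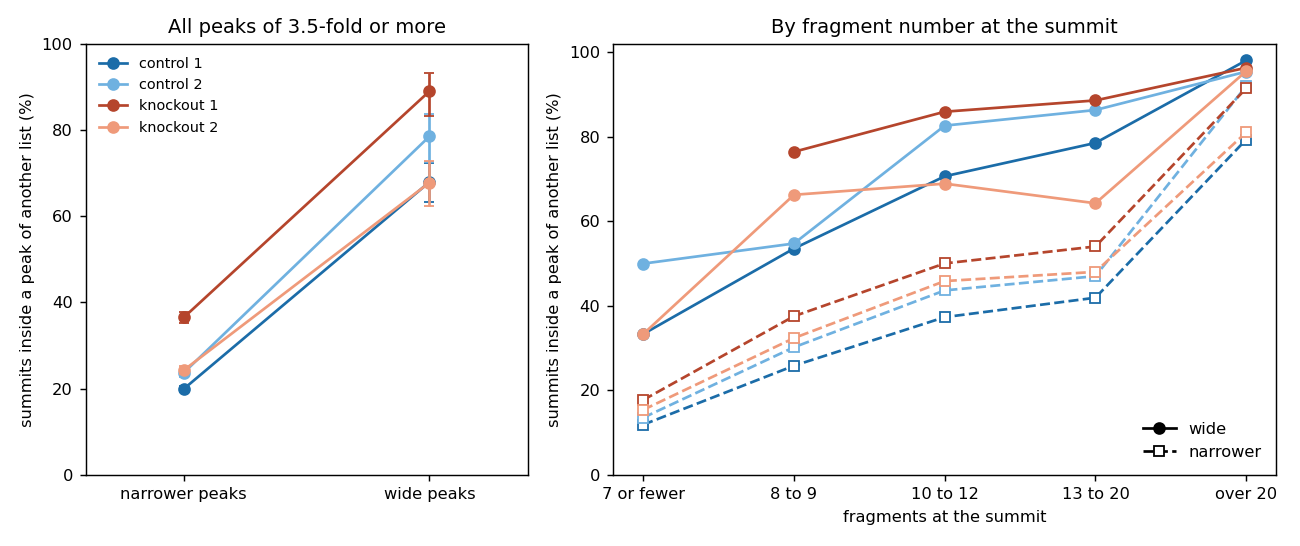
Left, share of summits that lie inside a peak of any other list, for narrower and wide peaks of each list, with exact binomial 95% intervals that cover counting error only. Right, the same share by fragments at the summit, wide peaks as filled circles and narrower peaks as open squares; wide peaks lie higher in every list and bin that holds any, with 98.1% against 79.4% in control 1 above 20 fragments.

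The width limit did not coincide with a step in recurrence. Peaks of 750 to 799 bp recurred in 54.7%, 63.3%, 70.0% and 62.7% of cases in control 1, control 2, knockout 1 and knockout 2. Those of 800 to 849 bp recurred in 51.9%, 76.3%, 88.5% and 56.5%, lower than the bin before in control 1 and knockout 2 and higher in the others.

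Most wide regions were wide in 1 list. The mark ran wide in 1 list at 598 regions, in 2 lists at 115, in 3 lists at 43 and in all 4 at 38. Regions wide in more lists were longer, with median merged lengths of 929, 1218, 1465 and 2390.5 bp, which merging over more lists also lengthens. Where a region was not wide in a list, that list often had a narrower peak. This held for 67.9% and 49.2% of such regions in the controls and 46.9% and 58.6% in the knockouts, with a median width there of 461.5, 426.5, 428 and 496 bp.

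Counting peaks of any width, 268 of 794 wide regions (33.8%, exact binomial 95% interval 30.5% to 37.2%) had a peak in all 4 lists. The same share over all merged regions was 2.09%. Overlap of 1 bp favours long regions: with 50% reciprocal overlap between peaks the class held 74 of 836 wide regions, and with peaks of a −log10 q of at least 5 it held 99 of 657. A further 211 (26.6%) had a peak in 3 lists, against 3.72% of all regions, and 107 (13.5%) in the list that called them and no other, against 83.6%. By 1 bp overlap, most wide regions therefore had a called peak in both groups. Intervals on counts here cover counting error only.

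**Figure D3:**
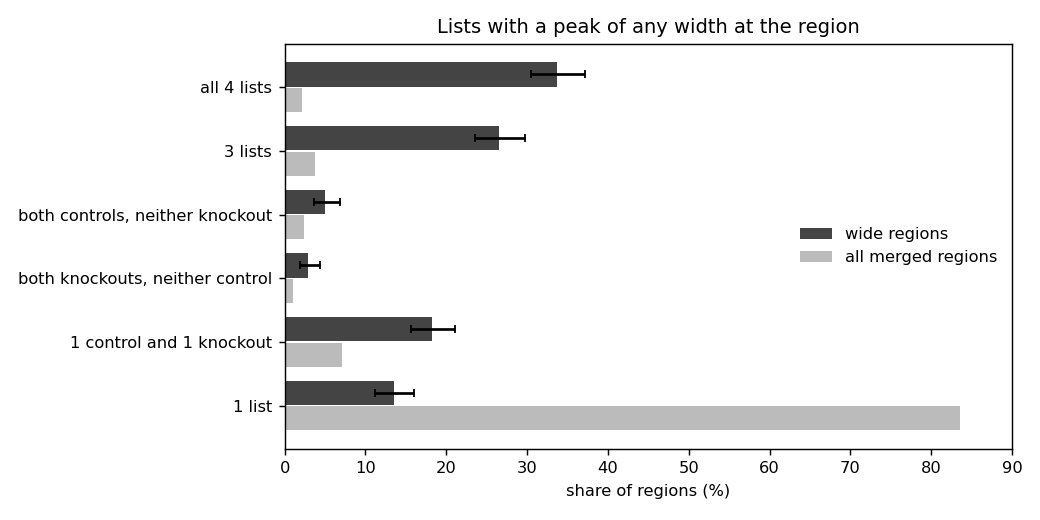
Share of regions by the lists that called a peak of any width there, for the 794 wide regions (dark bars, exact binomial 95% intervals) and all 28843 merged regions (light bars). A peak in all 4 lists was found at 33.8% of wide regions and 2.09% of all regions, and a peak in 1 list at 13.5% and 83.6%.

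Regions marked in both libraries of one group and neither of the other were few. There were 40 wide regions with a peak in both controls and neither knockout (5.04%, interval 3.62% to 6.80%), where the share over all regions was 2.43%. The reverse, a peak in both knockouts and neither control, was found at 23 (2.90%, interval 1.84% to 4.31%), against 1.09%. Both shares were above the background of all regions, and so were the mixed pairs, since 145 wide regions (18.3%) had a peak in exactly 1 control and 1 knockout list, against 7.12%. Among exclusive pairs of lists, control 1 with knockout 2 shared 78 wide regions (9.82%, against 3.26% of all regions), and control 1 with knockout 1 shared 39 (4.91%, against 1.53%). Control 2 with knockout 2 shared 21 (2.64%, against 1.56%), and control 2 with knockout 1 shared 7 (0.882%, against 0.770%), near the share of all regions. Control 1 and knockout 2 were also the longest lists, as the lists held 12990, 8742, 4980 and 9531 peaks. With every list kept to as many peaks as the shortest holds, the control class had 36 wide regions and the knockout class 33.

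Regions wide in both controls without any knockout peak numbered 4, and 0 regions were wide in both knockouts without a control peak. The 4 were in Ttc39c, a gene for a tetratricopeptide repeat protein (chr18:12619998-12621849), in Rsph3b, a radial spoke gene of cilia (chr17:6934677-6936601), 13.3 kb from 1700024G13Rik (chr14:32362290-32363236) and 15.6 kb from Hrh1 (chr6:114498864-114500123). Their folds in control 1 and control 2 were 7.17 and 17.6 at Ttc39c, 11.0 and 5.90 at Rsph3b, 9.01 and 6.78 on chromosome 14, and 7.65 and 7.11 near Hrh1. The summits held 8 to 25 fragments, so these calls rest on few reads. Of the 40 control regions 11 overlapped a protein-coding gene, and 9 lay in clusters of wide regions. Of the 23 knockout regions, each wide in 1 list, 5 overlapped a protein-coding gene.

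The highest fold of the control class was on chromosome 6, 53.9 kb from Peg10, a retrotransposon-derived imprinted gene (chr6:4814442-4815248). There control 1 had 30 fragments at the summit (21.5-fold, 807 bp wide) and control 2 had 27 (19.1-fold, 649 bp), with no peak in either knockout. The highest of the knockout class, named after its values were seen, was 8.25 kb from Spred2, an inhibitor of Ras to MAP kinase signalling (chr11:20032276-20033274). It had 32 fragments in knockout 1 (17.1-fold, 999 bp) and 9 in knockout 2 (7.32-fold, 485 bp), with no control peak. The highest fold of any wide peak, 24.5, was called in control 2 alone (chr5:115809316-115810344, 34.9 kb from Cit, a kinase of cell division), from 35 fragments. A strong summit in 1 library was thus not always called in the other library of its group.

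The share of summits in protein-coding genes was close in wide and narrower peaks at the 800 bp limit, with a difference smaller than its spread between lists. The summit lay in such a gene for 30.9%, 29.7%, 25.4% and 27.2% of wide peaks in control 1, control 2, knockout 1 and knockout 2, against 28.5%, 29.8%, 30.2% and 30.0% of narrower peaks. The difference was −1.31 points ± 3.11 (SD, n = 4), higher for wide peaks in 1 of 4 lists, with an exact two-sided sign-flip p of 0.375. Without the clusters described below it was 1.92 points, and at a width of 1000 bp or more it was −4.83 points (exact sign-flip p = 0.125, the smallest possible). Summits within 1 kb of a gene end made 1.44%, 2.74%, 3.47% and 0.929% of wide peaks and 1.30%, 1.39%, 1.67% and 1.53% of narrower peaks. That difference was 0.67 points ± 1.10 (higher in 3 of 4 lists, exact sign-flip p = 0.375) and −1.07 points without the clusters, while within 2 kb of a gene end it was 1.44 points (exact sign-flip p = 0.125). The gene annotation used gives spans without strand or exons, so introns, exons and UTRs were not told apart. Of the 21 wide summits at gene ends 17 were in clusters, 15 of them at predicted genes of the chromosome 6 array. Outside clusters they lay at Rbp7 with Nmnat1, Polr3e, Gm52432 and Gm51573.

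Of the 794 regions 249 overlapped a protein-coding gene, 27 lay within 5 kb of one without overlap and 518 were farther. More than 100 kb separated 272 of them from the nearest such gene. The 235 overlapped genes were long, with a median span of 165 kb, against 80.4 kb for genes that only other regions overlapped and 17.2 kb over all protein-coding genes. Several are among the longest genes of the genome, such as Dlg2, a synaptic scaffold gene of 1973 kb with 2 wide regions, and Ptprt, a receptor phosphatase gene of 1139 kb, also with 2. A long gene offers more bases to be overlapped, and no adjustment for length was made.

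Regions wide in 3 or 4 lists numbered 81, of which 21 overlapped protein-coding genes. In all 4 lists the mark ran wide in Dph5, Ptprd and Tmem132d outside the clusters. Dph5 encodes an enzyme of diphthamide synthesis on elongation factor 2, and its region (chr3:115906477-115907506) had folds of 10.2, 7.37, 6.30 and 5.41 in control 1, control 2, knockout 1 and knockout 2. Its summits held 42, 24, 46 and 29 fragments over local backgrounds of 3.21, 2.39, 6.46 and 4.55. Both controls lay above both knockouts in fold here, although knockout 1 had the most fragments. Ptprd, a receptor tyrosine phosphatase gene, had 7.21, 8.89, 6.77 and 5.81-fold (chr4:76213727-76214921), again with both controls above both knockouts. Tmem132d, which encodes a transmembrane protein, had 6.76, 6.87, 8.38 and 8.29-fold (chr5:127875133-127876819), with both knockouts above both controls. No test was made on these folds, as each is relative to a local background in its own list.

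Other genes outside the clusters were overlapped by a region wide in 3 lists. Prkcb, protein kinase C beta, was wide in both controls and knockout 2 (chr7:122541319-122542852), at 8.57, 8.16, 5.17 and 8.83-fold, and its peak in knockout 1 was 783 bp. Map2k6, a kinase of the stress-activated MAP kinase cascade, was wide in control 2 and both knockouts (chr11:110467599-110468826), at 9.53, 7.39 and 10.02-fold, with a peak of 335 bp at 5.73-fold in control 1. Mecom, a zinc finger transcription regulator, had 9.85, 6.99, 5.17 and 6.87-fold, the lowest in knockout 1, where the peak was 290 bp. Of the 43 regions wide in 3 lists, 39 had a peak of some width in the fourth.
Stam2, an adaptor of endosomal sorting, had 14.4 and 4.97-fold in the controls and 8.29 and 8.82-fold in the knockouts (chr2:52696455-52698959), and was the widest of these in knockout 2 with 2505 bp. Plekhm3, Ptprt, Sorcs2, a sorting receptor of neurons, Wdr37, Ccdc50 and Tmem267 were the others outside the clusters and outside the fixed lists. Ptprt was the one without a peak in the fourth list, knockout 1. The region near Rgs20, a regulator of G protein signalling, was wide in 3 lists at 13.3, 11.7 and 14.2-fold and likewise had no peak in knockout 1, the shortest list (chr1:5072029-5072972, 1.73 kb from the gene).

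Regions wide in all 4 lists numbered 16 outside the clusters, and 13 of them lay outside protein-coding genes. In both control lists the highest fold of the 16 was on chromosome 9, 13.2 kb from Cyp8b1, a gene of bile acid synthesis (chr9:121929497-121931927). In both knockout lists it was at chr2:98666283-98667327, with 11.3 and 15.5. Near Cyp8b1 the folds were 18.5, 13.7, 6.06 and 12.4 and the widths 2431, 2390, 2339 and 2136 bp. The width thus differed little there, while the fold in knockout 1 was the lowest. Summit fragments there numbered 42, 23, 11 and 16. On the X chromosome a region 72.3 kb from H2ab1, a histone variant gene, had 7.72, 7.17, 10.9 and 9.24-fold, with both knockouts above both controls. The folds of both controls lay above those of both knockouts at 5 of the 16 regions and below them at 3, and overlapped at 8. Over the 602 merged regions with a peak in every list the same was seen at 23.1% and 10.5%. At 10 of the 16 the local background was under 1.5 fragments in every list.

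**Figure D4:**
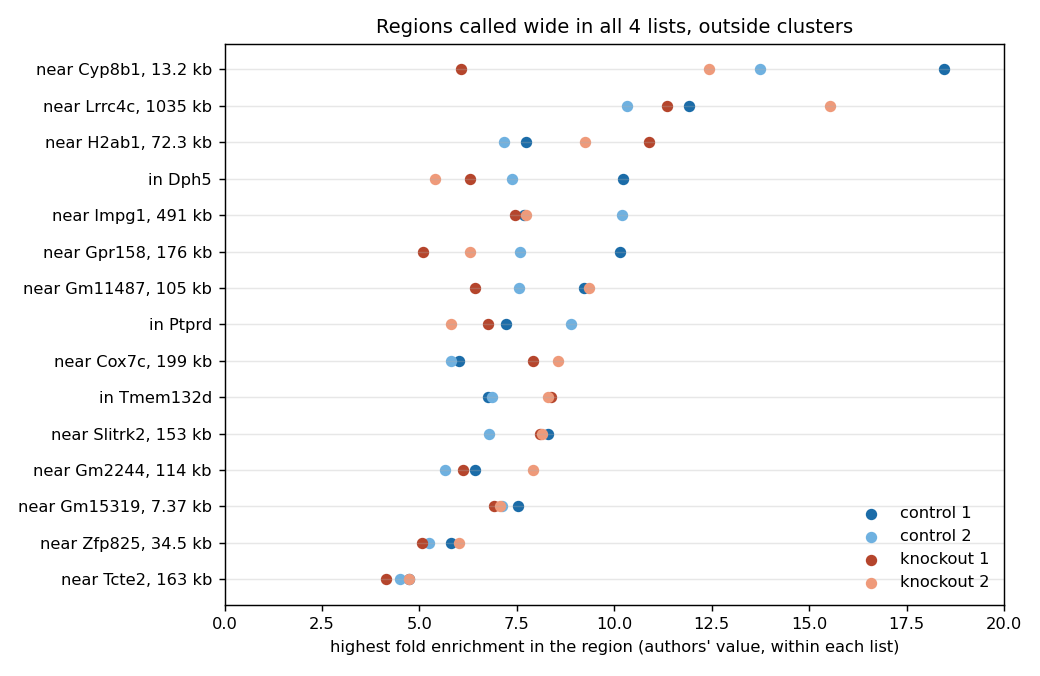
Highest fold in each list at 15 of the 16 regions called wide in all 4 lists outside clusters, named by the protein-coding gene they overlap or the nearest one with its distance. Among these 15 the groups interleave at 7, the controls lie above at 5 and the knockouts at 3; the region near Cyp8b1 spans 6.06 (knockout 1) to 18.5 (control 1).

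Some of these regions wide in all 4 lists outside the clusters, already counted above, stood on very high fragment numbers. At chr2:98666283-98667327 the summits held about 37332, 42101, 46723 and 35646 fragments, with folds of 11.9, 10.3, 11.3 and 15.5 over high local backgrounds. At chr14:19415723-19419408 they held about 9204, 10219, 11735 and 8676, with 6.43, 5.65, 6.13 and 7.90-fold. Regions at chr13:74528471-74530864 and chr17:13550722-13553149 held 285 to 408 and 536 to 809 fragments. The local background at the first of these was 2294 to 4120 fragments, against medians of 0.517, 0.601, 0.912 and 0.472 over all wide peaks. Widths over the 4 lists ran from 1032 to 1045 bp at the first and 3676 to 3686 bp at the second, and from 2120 to 2394 bp and 2349 to 2428 bp at the regions of chromosomes 13 and 17.

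Part of the wide regions stood in clusters. Clusters, defined after the data were seen as 3 or more wide regions with gaps of at most 20 kb, numbered 13 and held 81 regions (10.2%). They held 22 of the 38 regions wide in all 4 lists. Another 32 regions stood in pairs and 681 stood alone, and of those alone 30.8% still had a peak in all 4 lists. Chromosome 6 held 80 wide regions, 10.1% of them against 6.12% of narrower peaks, and 34 of the 80 were in clusters.

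The start of the assembled chromosome 9 was covered almost end to end. Between chr9:3000062 and chr9:3038261 there were 7 regions, all wide in every list, which covered 91.5% of 38.2 kb and ended 0.408 kb before the microRNA gene Mir101c. This end of the assembly is known to hold copies of the gamma satellite, the tandem repeat of mouse pericentromeres. The median summit of the wide peaks held about 6686, 6734, 6097 and 5808 fragments in control 1, control 2, knockout 1 and knockout 2, over median backgrounds of 954, 1110, 1209 and 743. Peaks there reached 11335 bp, the longest of all lists, at folds of 4.496 to 10.3.

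A pair of neighbouring clusters on chromosome 6 held repeated wide peaks over predicted genes, some of which have near-identical promoter windows. The genes themselves were not aligned. The first array (chr6:47653647-47686889) holds Rn4.5s, a gene of the rodent 4.5S RNA annotated at chr6:47654921-47655094. It also holds predicted genes, among them Gm40369, whose promoter window is shown above. The first array had 14 wide regions with a median spacing of 2.25 kb (1.53 to 4.34 kb), and 8, 6, 10 and 9 wide peaks in control 1, control 2, knockout 1 and knockout 2. The next array (chr6:47738441-47765265), with Gm52861 and Gm52862, had 7 regions at a median spacing of 4.18 kb (1.99 to 5.95 kb), and 4, 2, 4 and 4 wide peaks. Folds in the first array ran from 3.70 to 7.16, and the median local background of its wide peaks was 2.98, 3.67, 4.67 and 2.71 fragments, above the medians over all wide peaks. Both groups had wide peaks in both clusters, with 38.1%, 33.7%, 37.9% and 50.4% of the first array under peaks.

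The 5S ribosomal RNA array of chromosome 8 differed more between lists. This tandem of genes for the smallest ribosomal RNA (chr8:123538784-123622046, 48 rRNA genes, median spacing 1.70 kb) had wide peaks in control 1 (7), control 2 (1) and knockout 2 (6) and 0 in knockout 1. With narrower peaks the numbers were 56, 39, 16 and 38. Peaks covered 30.5%, 18.3%, 6.66% and 25.4% of the array, so knockout 2 lay between the controls and knockout 1 below all. Median summits were alike, at 10, 10, 10.5 and 10 fragments, while the background was highest in knockout 1, 1.12 against 0.738, 0.862 and 0.696. The part of that background and of the shorter list in the lower cover was not tested. Each 5S gene in such an array is nearly the same, so the placing of reads on single copies is uncertain.

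The interval between Hrh1, a histamine receptor gene, and Atg7, an autophagy gene, was the place with the most wide regions that leaned to the controls. It measures 160 kb (chr6:114483299-114643126) and held 13 wide regions in 2 clusters, wide in control 1 at all 13 and in control 2 at 2. Neither knockout had a wide peak there. Peaks of any width numbered 78 and 34 in the controls and 32 and 6 in the knockouts, and they covered 25.2%, 8.35%, 6.86% and 0.967% of the interval. As a share of each list this was 0.600%, 0.389%, 0.643% and 0.0630%, so by share knockout 1 was the highest and knockout 2 the lowest. Control 1 alone stood apart in width, at a median of 429 bp against 307.5, 323 and 249.5 bp. The local background in the interval was 0.712, 0.803 and 0.824 fragments in control 1, control 2 and knockout 1 and 0.447 in knockout 2, over list medians of 0.395, 0.470, 0.624 and 0.371. At 7 of the 13 regions both controls and neither knockout had a peak, which makes 7 of the 40 control regions above, and 4 had a knockout peak.

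**Figure D5:**
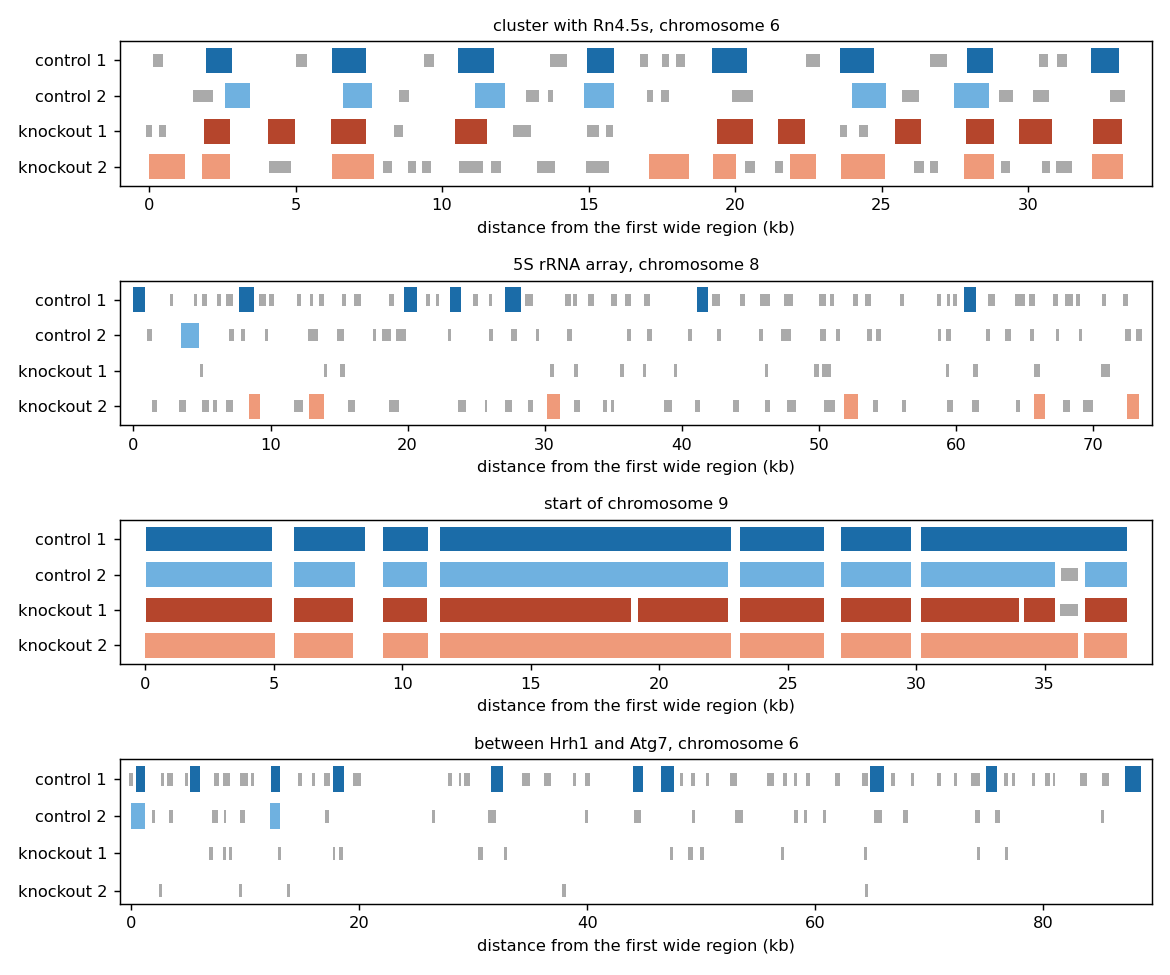
Peaks of each list along 4 clusters of wide regions, by distance in kb from the first wide region; wide peaks are tall coloured bars and narrower peaks are short grey bars. The start of chromosome 9 is filled in every list, the array with the 4.5S RNA gene has wide peaks in every list, the 5S array has no wide peak in knockout 1, and wide peaks between Hrh1 and Atg7 are in the control lists, 13 in control 1 and 2 in control 2 over the whole interval.

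Other clusters lay on chromosomes 3, 8, 17, 19, X and Y. On chromosome 8, 5 regions between 20646663 and 20706962, the first of them over the predicted gene Gm21119 and the others 13.9 to 54.5 kb from it, were wide in every list, at folds of 4.99 to 13.9, and peaks covered 41.3%, 40.6%, 37.7% and 41.3% of the span. At the end of the X chromosome the cluster at Erdr1 had 5, 2, 2 and 3 wide peaks, and a cluster on Y near Gm33272 had 4, 3, 4 and 3. On chromosome 19, next to Cbwd1, wide peaks were called in control 1 (3), control 2 (1) and knockout 2 (3), and in knockout 1 the same span had 5 narrower peaks. In Rsph3b, wide peaks were called in control 1 (2) and control 2 (2), knockout 1 had 2 narrower peaks and knockout 2 had 0. Apart from Rsph3b and the interval near Hrh1, the clusters had wide peaks in both groups.

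Wide regions near genes of the heart and marker lists were counted beside all protein-coding genes. Of 204 genes in 12 lists, 5 (2.45%) had a wide region within 5 kb, against 263 of 21887 protein-coding genes (1.20%). Of the 204 genes 68 (33.3%) had a region of any width, against 23.0%. The 5 genes with a wide region span 227 to 1018 kb, against a median of 17.2 kb over all protein-coding genes. Neither share was adjusted for gene length. By list the counts were 0 of 21 for cardiac transcription factors, 0 of 28 for the sarcomere, 0 of 23 for fatty acid oxidation and mitochondria, 0 of 20 for the cell cycle and 0 of 18 for arginine methylation and its coactivators, and at a background of 1.20% a count of 0 in a list of this size says little. In the list of the intercalated disc and costamere 2 of 20 had one, in calcium handling 1 of 16 and in ion channels and gap junctions 1 of 15. Peaks of any width stood at 9 of the 21 cardiac transcription factors and 8 of the 28 sarcomere genes, or 42.9% and 28.6%, against 23.0% of all protein-coding genes. Of the cardiomyocyte markers Myh6, Tnnt2, Actn2, Ttn and Ryr2, 2 had a peak, Ttn and Ryr2, and 0 had a wide one. A peak list does not measure expression, so this does not check the labelled cell type, nor can the loss of Carm1 be read from it. The wide region nearest to Carm1 (chr9:21546894-21589467) was 45.4 kb away and was wide in knockout 2.

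The list of the intercalated disc and costamere gave 2 of the 5, Sgcd and Sntb1. Sgcd, the delta-sarcoglycan gene, had a wide peak of 904 bp in control 1 at 7.43-fold and a peak of 620 bp in knockout 2 at 6.44-fold (chr11:47428293-47429196). Sntb1, the gene of beta-1-syntrophin, had a wide peak in control 1 at 9.88-fold and narrower ones in control 2 at 4.76-fold and knockout 2 at 5.67-fold (chr15:55683839-55684676). Both were wide in control 1 alone, the longest list, and each had a peak in knockout 2.
Slc8a1, the sodium-calcium exchanger of the cardiomyocyte membrane, had a wide region in its span with a peak in control 1 (8.58-fold, chr17:81689584-81690448) and no peak of another list over that region. Kcnd2, a potassium channel gene of the transient outward current, had peaks of 6.40, 6.09, 5.42 and 7.28-fold in all 4 lists and was wide in control 2 (chr6:21394103-21395077). The groups overlapped at Kcnd2.

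Erg, an ETS transcription factor of endothelial cells, was the one marker of another cell type with a wide region, 1 of 12 endothelial markers. It was called in every list at 6.33, 6.64, 6.70 and 7.71-fold and was wide in both controls and knockout 2 (chr16:95509192-95510754). Both knockout folds lay above both control folds, and this was not tested. Fibroblast markers (0 of 12), smooth muscle and pericyte markers (0 of 9) and macrophage and immune markers (0 of 10) had no wide region. Peaks of any width stood at 6 of 12 endothelial, 1 of 12 fibroblast, 4 of 9 smooth muscle and pericyte and 4 of 10 macrophage and immune markers. Over all protein-coding genes the share was 23.0%. The endothelial, smooth muscle and immune shares lay above it, and the fibroblast share lay below. These lists are short, and the shares were not tested or adjusted for gene length.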

How the data were processed

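H3R17me2a ChIP-seq was made from 4 ChIP libraries of cardiomyocyte nuclei, each with an input library that was not analysed here. The build was mm10 and the tools named were Bowtie2, MACS2, DiffBind, FastQC and MultiQC, per the submitters' processing notes, with versions and settings not given in the sources used here. Every ChIP library has its own peak list, deposited by the authors. Its fold is a ratio of summit fragments over local background, with 1 added to each, and significance is deposited as −log10 p-value and −log10 q-value. Total read depth is unknown from the lists. The summit fragment number and the local background were solved from the deposited fold and −log10 p (tolerance 0.01, or 0.01% from a −log10 p of 100, so that large fragment numbers are approximate). On 2000 simulated summits 100% were recovered, and of 500 simulated summits between whole numbers 6.4% were accepted.

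Wide peaks were at least 800 bp with a fold of at least 3.5. For a wide region, its class was taken from peaks of any width that overlap it by 1 bp, and 1 merged region of all peaks holds 2 wide regions. Tests over libraries were exact permutation and sign-flip tests, two-sided. Genes came from RefSeq GRCm38.p6 spans, and all 204 listed genes matched. Named were regions wide in 3 or 4 lists, the widest and highest-fold regions, regions wide in one group only, list members and Carm1, and of the regions wide in 3 or 4 lists mainly those in genes are printed. For 1 region wide in all 4 lists, the place and values are not reported here. Members and lists were chosen with earlier results of these data known. Alternatives were other limits of width, fold and q-value, autosomes, lists of equal length, other overlaps, each library left out and a replicate block. Added after seeing the data were leaving out clusters, matched fragment number, low background and peaks set to 300 bp around the summit. Python 3.11.15, NumPy 2.4.6, SciPy 1.17.1, pandas 2.3.3 and Matplotlib 3.10.9 were used.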

Additional observations from a re-analysis of the deposited data

How the results depend on the processing

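With 2 libraries a group no test over libraries could reach 0.05, and peak lists of few fragments miss weak regions, so an absent peak is not an absent mark. The difference in recurrence between wide and narrower peaks kept its direction in all 18 alternatives, from 32.8 to 58.2 points. The log2 ratio of the share of wide peaks, 0.26, was −0.30 with lists of equal length and kept its direction in 12 of 13 alternatives. It ranged from 0.10 to 0.46 when 1 library was left out. At a −log10 q of at least 5 it was 0.22 and without clusters 0.21, and in both the groups overlapped (exact permutation p = 0.667 in each). With the replicate block, which pairs libraries by number, it was 0.28 (exact sign-flip p = 0.5, the smallest that 2 pairs can give). The numbers share no stated origin. The difference at gene ends, 0.67 points, was −0.33 at a fold of at least 5, −0.39 within 5 kb of a gene end and −1.07 without clusters, but 1.44 within 2 kb (exact sign-flip p = 0.125). The difference inside protein-coding genes, −1.31 points, was 1.92 without clusters and −4.83 from 1000 bp (exact sign-flip p = 0.125). The cause was not tested.

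Counts moved with the limits. The 794 wide regions became 1247 from 700 bp and 362 from 1000 bp, and 549 to 726 with 1 library left out. The 268 regions with a peak in all 4 lists became 176 from 1000 bp, 99 at a −log10 q of at least 5 and 74 with 50% reciprocal overlap. The 40 control regions became 68 from 700 bp and 17 from 1000 bp, and the 23 knockout regions became 40 and 6. With lists of equal length these classes were 36 and 33. With 1 library left out these classes ranged from 33 to 113 and from 15 to 66, since a class then needs fewer libraries; the highest were without knockout 2 and without control 1.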
